A study of Homo sapiens with 18 samples.

Results

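Copanlisib was compared with its solvent DMSO after 12 h in the human cell line HAIR-M, labelled MZL for marginal zone lymphoma, which arises from mature B cells. The comparison uses 6 of the 18 libraries of the series: 3 of cells given 5 nM copanlisib for 12 h and 3 of cells given DMSO for 12 h. They were chosen by the treatment and time in their labels. The other 12 libraries are the same treatments at 4 and 8 h and serve here to estimate the spread and to set the 12 h effect beside earlier ones. All groups are the same cell line at 1 dose, grown with fetal bovine serum, and no library of untreated cells was used. Whether replicates are separate cultures is not in the labels, so the p-values reflect spread among these libraries that may be technical. The labels' extraction protocol speaks of retinas, but of 16 retina marker genes only 2 passed the filter on low counts, and all 6 B cell markers did, among them MS4A1, CD79A, CD79B, PAX5 and CD22.

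Phosphoinositide 3-kinases (PI3K) are lipid kinases that act below the B cell receptor and cytokine receptors. Their product recruits the kinase AKT to the membrane. AKT phosphorylates the FOXO transcription factors and so keeps them out of the nucleus, and it activates the kinase complex mTORC1, which promotes protein synthesis, ribosome production, translation of the transcription factor ATF4, and lipid synthesis through the SREBP factors. Copanlisib is an inhibitor of class I PI3K that acts most strongly on the alpha and delta isoforms, and the delta isoform is the main one in B cells.

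The 3 DMSO libraries of 12 h held 18096610, 16383898 and 19573586 reads on genes and the 3 copanlisib libraries 18864012, 15741233 and 19025252. Values are given as CPM, gene counts scaled to a common library size with TMM factors, and changes as log2 fold changes of copanlisib over DMSO with their standard error (SE). A gene is called where the adjusted p of edgeR's quasi-likelihood test (Benjamini-Hochberg, two-sided) is under 0.05. CPM are shares of a library, so a change in the total RNA of a cell was not measured, and in bulk libraries less RNA per cell and fewer cells that express a gene cannot be told apart. Within the 12 h groups, 1.76% to 2.58% of reads were unmapped and 9.63% to 10.5% of gene reads came from the mitochondrial genome. Among the 4 h libraries, copanlisib replicates 1 and 2 lay away from the rest, with 8.73% and 5.22% of reads unmapped. They resembled each other (chi-square of 2.43 per gene) and differed from replicate 3 (19.9 and 15.8). Leaving them out keeps 1 copanlisib library at 4 h. The differences within this group widen the shared spread. The 12 h counts are therefore also given without replicates 1 and 2 for all genes and for some lists. Lists given once shifted too. Without these replicates, more members were called in the interferon, replication, homologous recombination, mitochondrial ribosome and lysosome lists.

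Sequences from 4 promoters are shown because their genes moved at 12 h and they hold motifs of factors that act below PI3K: a FOXO motif at TXNIP, the C/EBP-ATF element to which ATF4 binds at CHAC1 and ASNS, and an E-box, the motif of MYC, at UTP4. Each is 120 bases of the RefSeq promoter (GRCh38.p14), upstream of the annotated start, 5′ to 3′ on the gene's strand, with the match in capitals. The TXNIP stretch lies at chr1:145996640-145996759 on the minus strand, and its match begins 124 bases before the start. Those of CHAC1 at chr15:40953221-40953340 (plus strand) and ASNS at chr7:97872413-97872532 (minus strand) have the match 209 and 68 bases before the start, and that of UTP4 at chr16:69132529-69132648 (plus strand) has it 16 bases before.
TXNIP: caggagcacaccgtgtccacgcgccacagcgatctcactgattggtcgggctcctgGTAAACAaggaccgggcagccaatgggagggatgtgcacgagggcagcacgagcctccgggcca
CHAC1: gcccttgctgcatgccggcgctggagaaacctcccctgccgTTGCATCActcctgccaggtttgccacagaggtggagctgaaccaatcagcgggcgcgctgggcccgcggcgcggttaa
ASNS: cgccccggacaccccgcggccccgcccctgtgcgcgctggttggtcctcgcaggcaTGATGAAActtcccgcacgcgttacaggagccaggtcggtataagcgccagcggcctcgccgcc
UTP4: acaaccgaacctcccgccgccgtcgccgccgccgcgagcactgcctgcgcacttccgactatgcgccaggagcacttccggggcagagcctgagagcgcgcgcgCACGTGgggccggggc

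The 5 motifs below were searched on both strands in promoters of 300 bases, 250 before and 50 after the start, of which 11172 belonged to tested genes. The FOXO motif TGTTTAC was in 5 of 29 promoters of the list of FOXO factors and targets and in 2.36% of those of tested genes. The 5 include FOXO4, itself a factor, and BCL2L11, which was not called, while PIK3IP1, TSC22D3 and CDKN1B had no match. The E-box CACGTG was in 15 of 37 promoters of the MYC list and 10.2% of those of tested genes, and the element TGATGNAA was in 6 of 27 promoters of the ATF4 list and 1.80%. The SREBP element TCACNCCAC was in 1 of 23 promoters of the cholesterol list and 1.13%, and the AP-1 motif TGANTCA was in 1 of 22 promoters of the immediate early list and 4.52%. TGANTCA is 7 bases long and shares its first letters with TGATGNAA, but no stretch can match both at the same start. A match describes these letters and shows neither binding nor a cause.

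After 12 h, 4882 of 16122 genes tested (30.3%) were called: 2218 were higher with copanlisib (13.8%) and 2664 lower (16.5%). Most changes were small. Of the calls, 1508 of those higher and 2135 of those lower were under 0.5 on the log2 scale, and 277 genes (1.72%) were called and changed at least 2-fold, 173 up and 104 down. The 3 libraries of one group lay entirely above the 3 of the other for 7420 genes (46.0%). The median log2 fold change over all genes was 0.0044. Protein-coding genes made up 1895 of the higher and 2535 of the lower calls. Of 2190 lincRNA and antisense genes tested, 244 were called higher and 83 lower. Both shares were under those over all genes, the lower share by far more. Without the 2 libraries of 4 h that stood apart, 6221 genes were called, 2876 higher and 3345 lower. The median change went from −0.064 where GC content was lowest to 0.046 where it was highest (20% of genes each). At 4 h, over all 18 libraries, the median effect went the other way, from 0.12 to −0.21. The part of GC content in single results and in differences between 12 and 4 h was not tested. The share called rose with average level, from 8.09% in the lowest 20% of genes to 49.3% in the highest. In that highest part, 580 of 3225 genes were called higher and 1009 lower. Shares over all genes given below are not matched for level.

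**Figure D1:**
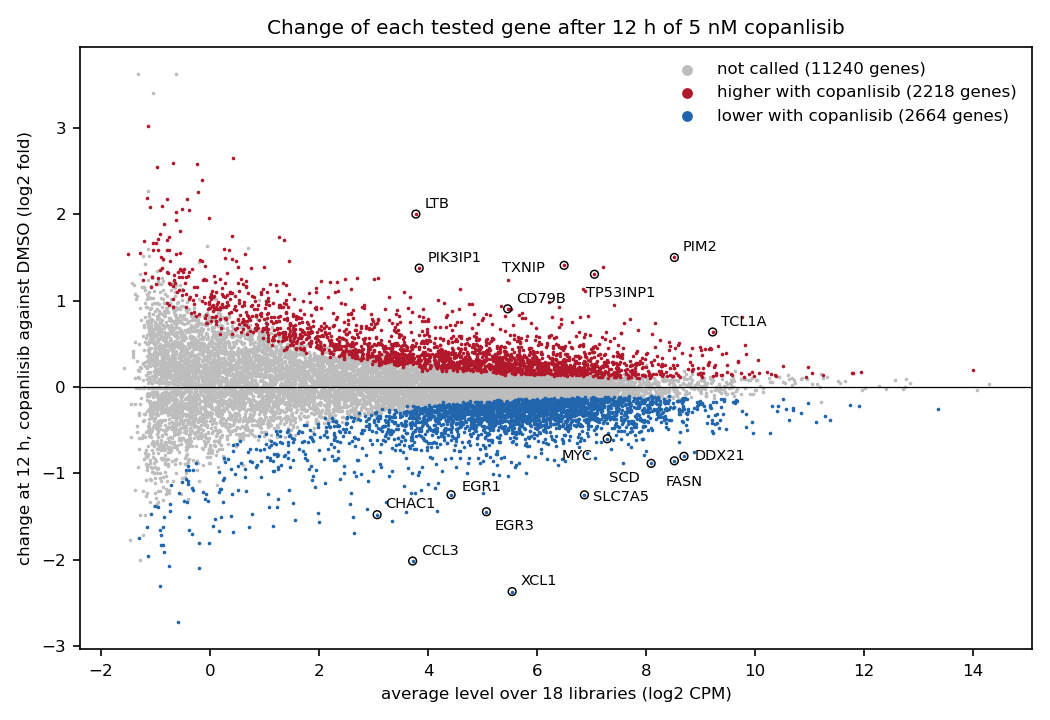
Change of each of the 16122 genes tested at 12 h (vertical axis, log2 fold change) against its average level over all 18 libraries (horizontal axis, log2 CPM), with the 2218 genes called higher in red and the 2664 called lower in blue. LTB, PIM2 and TXNIP stand at the top among well expressed genes and XCL1 and CCL3 at the bottom.

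Among well expressed protein-coding genes (average log2 CPM of at least 3, groups apart), LTB rose most. LTB, the lymphotoxin beta chain that organises lymphoid tissue, stood at 32.01, 30.7 and 33.9 CPM with copanlisib and 8.19, 8.38 and 7.64 CPM with DMSO. This was a log2 fold change of 2.000 ± 0.092 (SE, adjusted p = 1.15e-14), or 4-fold. PIM2, a kinase that promotes survival and translation in parallel with AKT, gave 516, 502 and 516 CPM against 180.4, 180.3 and 182 CPM, a log2 change of 1.50 ± 0.045. The SDs were 8.27 and 1.16 CPM, so the gap was many times the spread between replicates. TXNIP, which limits glucose uptake and is a FOXO target, was at 77.5, 77.3 and 88.8 CPM against 31.9, 32.4 and 27.8 CPM (1.41 ± 0.068). PIK3IP1, a membrane protein that inhibits PI3K itself, was at 18.2, 16.9 and 20.2 CPM against 7.53, 7.17 and 6.71 CPM (1.38 ± 0.11). The limit on separate groups required every copanlisib library to be above every DMSO library in all of these genes. The rise of TP53INP1, a stress protein of autophagy, was 1.30 ± 0.055, that of the homeobox gene MEOX1 1.26 ± 0.1, and that of YPEL3, linked to growth arrest, 1.23 ± 0.075. WHRN, RAB37, TSC22D3 (the glucocorticoid-induced leucine zipper GILZ) and TDRD12 were also among the 12 highest, with log2 changes of 1.13, 1.13, 1.11 and 1.04.

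By the same limits, the chemokine genes XCL1 and CCL3 fell most. XCL1, the chemokine lymphotactin, went from 82.9, 77.05 and 89.8 CPM in DMSO to 16.4, 18.2 and 14.2 CPM with copanlisib, a log2 change of −2.37 ± 0.076 (adjusted p = 5.09e-18). CCL3, a chemokine that activated B cells secrete, went from 19.3, 18.6 and 21.1 CPM to 5.42, 4.26 and 4.88 CPM (−2.01 ± 0.12). Both have near-identical copies, which reads counted at 1 place only cannot all be assigned to, so their levels are uncertain. The same limit required each copanlisib library to be below each DMSO library for both. SLC7A11, the cystine transporter, was at 4.35, 3.89 and 3.99 CPM with copanlisib and 11.5, 13.4 and 11.1 CPM with DMSO (−1.55 ± 0.13). CHAC1, an enzyme that degrades glutathione, was at 5.15, 4.08 and 3.68 CPM against 11.98, 11.96 and 12.1 CPM (−1.48 ± 0.11). SLC7A5, the large neutral amino acid transporter, was at 48.8, 46.8 and 46.1 CPM against 109.9, 114 and 112 CPM (−1.25 ± 0.065, adjusted p = 1.54e-13), and the serine synthesis enzyme PSAT1 fell by 1.23. Groups did not overlap for these metabolic genes either, as the limit required. FOSL1, an AP-1 subunit, and the zinc finger factors EGR3 and EGR1 changed by −1.44, −1.44 and −1.25, and NIPAL4, G0S2 and TM4SF19 by −1.43, −1.33 and −1.23.

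**Figure D2:**
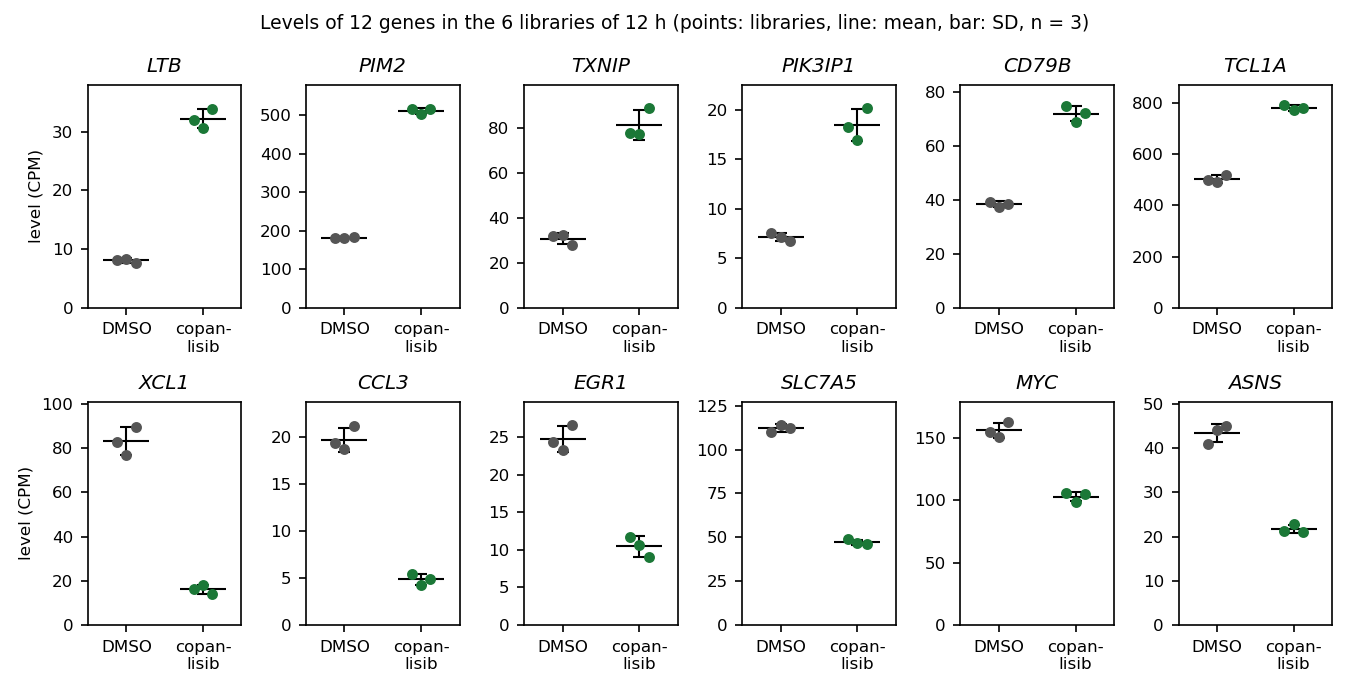
Levels of 12 genes in CPM (vertical axes, from 0) in the 3 DMSO and 3 copanlisib libraries of 12 h, with points for libraries, lines for means and bars for SD. LTB, PIM2, TXNIP, PIK3IP1, CD79B and TCL1A are higher with copanlisib, and XCL1, CCL3, EGR1, SLC7A5, MYC and ASNS are lower. Groups do not overlap in any panel. The naming rule required this of LTB, PIM2, TXNIP, PIK3IP1, XCL1, CCL3, EGR1 and SLC7A5.

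Genes of the PI3K pathway itself moved both ways. Of 36 PI3K-AKT-mTOR components tested, 11 were higher and 8 lower, with a median of −0.017. The catalytic subunit PIK3CD (p110 delta), by far the most abundant of the 4, was at 551, 523 and 544 CPM with copanlisib and 442, 465 and 450.5 CPM with DMSO, a log2 change of 0.25 ± 0.053 (adjusted p = 0.000538). PIK3CA rose by 0.22 and PIK3CG by 0.29, while PIK3CB was lower at −0.18. These 3 calls were close to the threshold and were lost in alternatives that left out 1 library of 12 h, with adjusted p reaching 0.18, 0.12 and 0.18. The regulatory subunit PIK3R1 fell by 0.43 and PIK3R5, a partner of the gamma isoform, rose by 0.46. Brakes on the pathway were among the higher genes: besides PIK3IP1, DEPTOR, an inhibitor of mTOR complexes, was at 1.80, 1.88 and 1.30 CPM against 0.446, 0.607 and 0.728 CPM (1.46 ± 0.29), at a low level. INPP5D, the phosphatase SHIP1, rose by 0.26 and TSC2, which restrains mTORC1, by 0.24. TCL1A, an AKT coactivator of B cells, rose from 502 ± 14.9 to 780.1 ± 10.8 CPM (SD, n = 3). EIF4EBP1, the mTORC1 substrate that blocks cap-dependent translation, fell (−0.64 ± 0.075), as did AKT1S1, the mTORC1 inhibitor PRAS40 (−0.49 ± 0.082). Messenger RNA of the kinases at the centre gave no call: AKT1 changed by −0.022 ± 0.053, AKT2 by 0.012 ± 0.062 and MTOR by −0.071 ± 0.042.

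FOXO targets rose as a list. Of 36 tested members, 21 were higher and 1 lower, with a median of 0.38 against 0.0044 over all genes. The list was put together with earlier results of these data known and includes genes that had stood out in them, so its count is not independent evidence of its direction. The factors themselves moved little: FOXO1 was at 58.5, 61.2 and 60.02 CPM with copanlisib and 60.2, 57.01 and 56.5 CPM with DMSO (0.049 ± 0.057), FOXO3 at 1.06 ± 0.295 against 1.00 ± 0.102 CPM (SD, n = 3), and FOXO4 rose by 0.44. Beside TXNIP, PIK3IP1, YPEL3 and TSC22D3, the ubiquitin ligase of muscle atrophy FBXO32 rose from 2.73 ± 0.353 to 5.99 ± 0.542 CPM (1.13 ± 0.14). BMF, a BH3-only protein that promotes apoptosis, rose by 0.83, PINK1, a kinase of mitochondrial quality control, by 0.75, and KLHL24 by 0.80. The cell cycle inhibitor CDKN1B (p27) was at 100.1, 101 and 104 CPM against 76.5, 74.1 and 72.04 CPM (0.45 ± 0.054), with no overlap. CCNG2, an atypical cyclin linked to arrest, rose by 0.58, and the homing receptor CCR7 by 0.38. TRIB1 was the only member called lower (−0.21). Members with values that were not called include BCL2L11, the apoptosis activator BIM, at 1.81 ± 0.248 against 2.15 ± 0.124 CPM, and KLF2 at 0.560 ± 0.242 against 0.210 ± 0.1 CPM.

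Genes that answer growth signals through ERK were mostly lower. Of 31 immediate early and ERK response genes, 18 were lower and 4 higher, with a median of −0.53. EGR1 was at 11.8, 10.6 and 9.03 CPM with copanlisib and 24.4, 23.3 and 26.7 CPM with DMSO (−1.25 ± 0.1, adjusted p = 6.78e-10), and EGR3 at 18.4, 17.8 and 16.3 CPM against 44.6, 47.2 and 50.7 CPM. NR4A1, an orphan nuclear receptor induced by antigen receptor signals, was at 12.9, 12.98 and 11.7 CPM against 23.2, 25.6 and 26.2 CPM (−0.998 ± 0.093). PHLDA1 fell by 0.93, and the ERK phosphatases DUSP2, DUSP4 and DUSP5 by 0.60, 0.41 and 0.55. The feedback inhibitors SPRED1 and SPRED2 and the ERK-driven factors ETV4 and ETV5 were lower as well, at −0.54, −0.55, −0.62 and −0.68. The 4 higher members were JUN (0.26), IER5 (0.28), MCL1 (0.54) and DUSP6 (0.56). DUSP6, an ERK phosphatase usually taken as a readout of the pathway, was thus opposite to its relatives, at a low level of 4.20 ± 0.255 against 2.86 ± 0.182 CPM.

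NF-kB genes and secreted factors split. Of 30 NF-kB subunits and targets, 14 were lower and 9 higher, with a median of −0.13. The subunit REL fell from 31.1 ± 3.4 to 19.3 ± 1.86 CPM (−0.69 ± 0.11), and NFKB1 by 0.24, while RELB rose by 0.34 and RELA changed by 0.036 ± 0.053 without a call. The antiapoptotic targets BCL2A1 and BIRC3 were lower (−0.61 and −0.55). The 3 neighbouring genes of the TNF locus parted: LTA was at 22.2, 20.6 and 19.4 CPM with copanlisib and 37.7, 39.6 and 41.2 CPM with DMSO (−0.93 ± 0.069), and TNF changed by −0.63, both opposite to LTB. Of 21 cytokine and chemokine genes, 11 were lower and 5 higher. LIF and VEGFA were lower (−0.88 and −0.57), and so was the abundant chemokine CCL22, at 2175 ± 101 against 2879 ± 81.5 CPM. XCL2 and CCL4 were lower at levels near 1 CPM (−1.81 ± 0.37 and −1.49 ± 0.3). The other 4 members called higher were CCL17 (0.86), IL16 (0.36) and the interferon-induced chemokines CXCL9 (0.45) and CXCL10 (0.40).

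MYC and the machinery of ribosome production fell together. MYC was at 106, 98.7 and 105 CPM with copanlisib and 155, 151 and 163 CPM with DMSO, a log2 change of −0.60 ± 0.046 (adjusted p = 2e-10) with no overlap. Of 44 MYC and nucleolar targets, 38 were lower and 3 higher, with a median of −0.45. The 3 higher members were MXI1, MXD3 and MXD4 (0.34, 0.42 and 0.41), which encode proteins that compete with MYC for its partner MAX. MNT, another such antagonist, was lower (−0.42). The RNA helicase DDX21 was at 258, 264 and 241 CPM against 451, 441 and 437 CPM (−0.80 ± 0.052), and NOLC1, a nucleolar chaperone, at 165, 167 and 161 CPM against 276, 275 and 272 CPM (−0.74 ± 0.039). NOP16 and MRTO4, assembly factors of the large ribosomal subunit, fell by 0.93 and 0.76. Nucleolin (NCL), one of the most abundant members, went from 1286 ± 32.6 to 892 ± 30.3 CPM. UTP4, whose E-box is shown above, changed by −0.53 ± 0.048.

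RNA polymerases I and III, which make ribosomal and transfer RNA, had 17 of 37 members lower and 2 higher (18 and 4 without the 2 libraries of 4 h), with a median of −0.16. POLR3G was at 9.72, 8.09 and 10.4 CPM against 21.1, 20.6 and 21.9 CPM (−1.17 ± 0.097), and its paralogue POLR3GL at 17.9 ± 0.461 against 15.3 ± 1.67 CPM, which was not called. POLR1G, POLR1B and POLR3B were lower as well, at −0.83, −0.51 and −0.50. MAF1, the repressor of RNA polymerase III that mTORC1 inhibits, and BRF1 were the 2 higher members (0.28 and 0.22). Small nucleolar RNA host genes were lower in 8 of 20 and higher in 1 (11 and 3 without those libraries). SNHG15 was at 24.3, 24.2 and 23.03 CPM against 40.9, 43.7 and 41.1 CPM (−0.81 ± 0.073), and SNHG4, SNHG17, SNHG12 and SNHG3 changed by −0.67, −0.53, −0.51 and −0.49. GAS5, a host gene whose RNA is known to build up when translation is blocked, changed by −0.11 ± 0.047 and was not called.

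Cytosolic ribosomal protein genes did not follow the nucleolar genes. Of 53, 0 were lower and 12 higher (0 and 26 without the 2 libraries of 4 h), with a median of 0.094 and a range of −0.023 to 0.23. RPS27 was highest, at 649, 624 and 614 CPM with copanlisib and 546, 496 and 562 CPM with DMSO (0.23 ± 0.049). RPL37, RPL13A, RPL28 and RPL10 were called at 0.18, 0.17, 0.17 and 0.17, but lost their calls when 1 library of 12 h was left out (DMSO replicate 2 for each, others too for all but RPL37), with adjusted p reaching 0.055, 0.085, 0.2 and 0.16. No member was lower at an unadjusted p under 0.05 either, nor with DESeq2 or limma-voom (0 of 53 each). Many of these genes have processed pseudogenes that can take or share reads. Translation initiation factors were lower in 21 of 37 and higher in 3. EIF4E, the cap-binding protein, was at 24.1, 22.1 and 22.8 CPM against 33.1, 30.8 and 31.4 CPM (−0.46 ± 0.062). EIF5B, EIF2B3, EIF2S1 and EIF2S2, which serve subunit joining and the loading of initiator tRNA, changed by −0.50, −0.47, −0.47 and −0.45. The 3 higher members, EIF3F, EIF3L and EIF3G, belong to the eIF3 complex (0.17, 0.15 and 0.14).

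**Figure D3:**
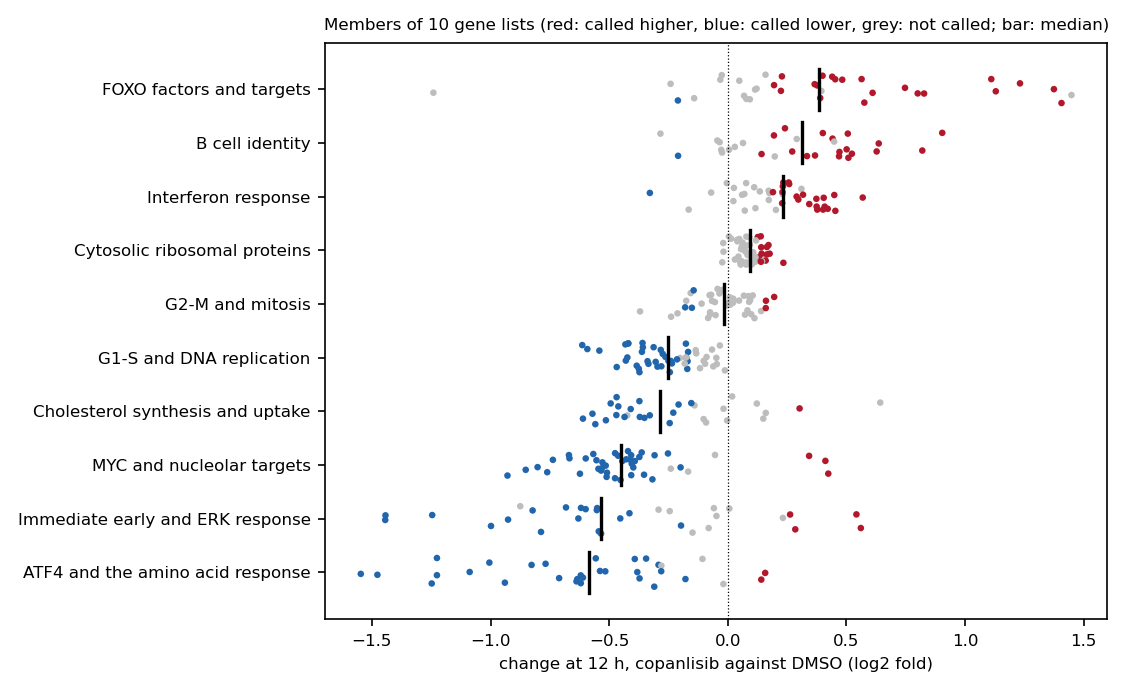
Log2 fold change at 12 h (horizontal axis) of every tested member of 10 gene lists (rows), coloured by call, with a bar at the median. Medians run from 0.38 for FOXO targets to −0.58 for the ATF4 list, and the ribosomal protein genes form a narrow group just above 0.

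The amino acid response had the lowest median of the 44 lists. Of 32 ATF4 targets and related genes, 27 were lower and 2 higher, with a median of −0.58. ATF4 itself was at 240.5, 236 and 228 CPM with copanlisib and 303, 308 and 306 CPM with DMSO (−0.38 ± 0.04, adjusted p = 4.01e-08). ASNS, asparagine synthetase, was at 21.2, 22.8 and 21.01 CPM against 41.02, 44.2 and 45.01 CPM (−1.005 ± 0.067, adjusted p = 1.28e-11). Its groups were far apart, as were those of PSAT1 at 20.02, 23.4 and 19.1 CPM against 50.7, 46.1 and 48.8 CPM. The serine and proline synthesis enzymes PHGDH, PYCR1 and ALDH18A1 were lower (−0.54, −0.77 and −0.37), as were the mitochondrial folate enzymes MTHFD2 and SHMT2 (−0.52 and −0.29). Among transporters, the glycine carrier SLC6A9 changed by −1.23 ± 0.16, the glutamine carrier SLC1A5 by −0.83 ± 0.064, and SLC3A2, the heavy chain that pairs with SLC7A5 and SLC7A11, by −0.62 ± 0.065. SLC38A2 and SLC1A4 were the 2 members that rose, by 0.16 and 0.14. The stress genes TRIB3 and DDIT3 (CHOP) changed by −0.71 and −0.62.

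Aminoacyl-tRNA synthetases, which charge tRNAs with amino acids, were lower in 18 of 20 genes and higher in 1, with a median of −0.39. GARS1 was at 98.8, 108 and 92.9 CPM with copanlisib and 165, 163 and 162 CPM with DMSO (−0.71 ± 0.055). YARS1, FARSB, IARS1 and MARS1 changed by −0.70, −0.69, −0.61 and −0.52. QARS1, the glutamine enzyme, was the one that rose (0.13).

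Genes of nucleotide and polyamine synthesis were more often lower than higher. Purine and pyrimidine synthesis had 18 of 23 members lower and 0 higher by edgeR, DESeq2 and limma-voom (1 at an unadjusted p under 0.05), with a median of −0.29. PAICS, a purine synthesis enzyme, was at 180.4, 172 and 175 CPM with copanlisib and 307, 292 and 309.7 CPM with DMSO (−0.78 ± 0.045). PPAT, the committed step of purine synthesis, and CTPS1, which makes CTP and is needed by dividing lymphocytes, changed by −0.59 ± 0.075 and −0.56 ± 0.052. The thymidylate and deoxynucleotide enzymes TYMS and RRM2 were not called (−0.046 ± 0.042 and −0.061 ± 0.041). Polyamine synthesis had 7 of 13 members lower and 2 higher. Its first enzyme ODC1, also a MYC target, was at 55.3, 53.8 and 48.97 CPM against 97.4, 90.8 and 96.8 CPM (−0.85 ± 0.054), and SRM and AMD1 changed by −0.68 and −0.65. ANTXR2, a member of the list that is not a polyamine enzyme but the anthrax toxin receptor, and the polyamine oxidase PAOX were the 2 that rose (0.56 and 0.25).

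Lipid synthesis genes fell in similar shares. Cholesterol synthesis and uptake had 18 of 30 lower and 1 higher, with a median of −0.29. HMGCS1, an early enzyme of the mevalonate pathway, was at 108, 107 and 103 CPM with copanlisib and 166, 163 and 157 CPM with DMSO (−0.61 ± 0.049). IDI1, an isomerase further down the pathway, changed by −0.57. MYLIP, a ubiquitin ligase, was the 1 member that rose (0.30), and SREBF2 changed by −0.0027 ± 0.056 without a call. Fatty acid synthesis had 13 of 19 lower and 1 higher. SCD, the desaturase that makes monounsaturated fatty acids, was at 154, 156 and 146 CPM against 280.5, 289.9 and 271 CPM (−0.88 ± 0.041, adjusted p = 1.3e-14). Fatty acid synthase FASN was at 249, 219 and 229 CPM against 394, 424 and 442 CPM (−0.85 ± 0.1), and its transcription factor SREBF1 fell by 0.47. In glycolysis and hypoxia, 16 of 31 were lower and 1 higher. HK2, the inducible hexokinase, was at 42.6, 43.1 and 44.8 CPM against 76.2, 81.8 and 76.1 CPM (−0.84 ± 0.077), and LDHA, PFKFB3 and the glucose transporter SLC2A3 changed by −0.53, −0.50 and −0.54. SLC2A1, the ubiquitous glucose transporter, and GAPDH were not called (−0.075 ± 0.07 and −0.026 ± 0.04), and ADM rose at a low level (0.73 ± 0.21), a call lost without DMSO replicate 1 (adjusted p over the alternatives 0.00071 to 0.064).

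Protein folding and turnover genes were lower too. Of 28 heat shock and chaperonin genes, 19 were lower and 1 higher, with a median of −0.32. HSPA5 (BiP), the chaperone of the endoplasmic reticulum, was at 255, 253 and 240.4 CPM with copanlisib and 428, 416 and 419.7 CPM with DMSO (−0.76 ± 0.044). All 8 chaperonin subunits tested, CCT2 to CCT8 and TCP1, were called lower, CCT5 most (−0.50 ± 0.041) and CCT3 least (−0.22 ± 0.037). The stress-inducible HSPA1A and HSPA1B were not called (0.11 ± 0.058 and 0.069 ± 0.059), and HSPA1L, which rose (0.56 ± 0.17, lost without DMSO replicate 1, with adjusted p over the alternatives 0.0066 to 0.052), shares much sequence with them. Proteasome subunits were lower in 17 of 31 and higher in 0 by edgeR, DESeq2, limma-voom and at an unadjusted p under 0.05, with a median of −0.19. PSMA3 and PSMD12 changed by −0.46 ± 0.056 and −0.44 ± 0.064. In mitochondria, 15 of 42 ribosomal protein genes were lower and 1 higher, with MRPL17 lowest (−0.48 ± 0.052). Of all genes in the highest 20% by average level, 1009 of 3225 were called lower, and in the next 20% 787 of 3224. Whether the lower share of this list exceeds that of genes of the same level was not tested. The nuclear-encoded respiratory chain had 2 of 42 lower and 4 higher (3 and 13 without the 2 libraries of 4 h). Cytochrome c (CYCS) was at 237, 255 and 243 CPM against 341, 329 and 346 CPM (−0.47 ± 0.047), and COX4I1 rose by 0.25. Of the 13 genes of the mitochondrial genome, 0 were called by edgeR, DESeq2 and limma-voom and 1 was lower at an unadjusted p under 0.05. This was MT-ATP8, at 395, 299 and 434 CPM against 511, 506 and 374 CPM, with groups that overlapped. Without the 2 libraries of 4 h that stood apart, 1 was called lower and 1 higher.

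**Figure D4:**
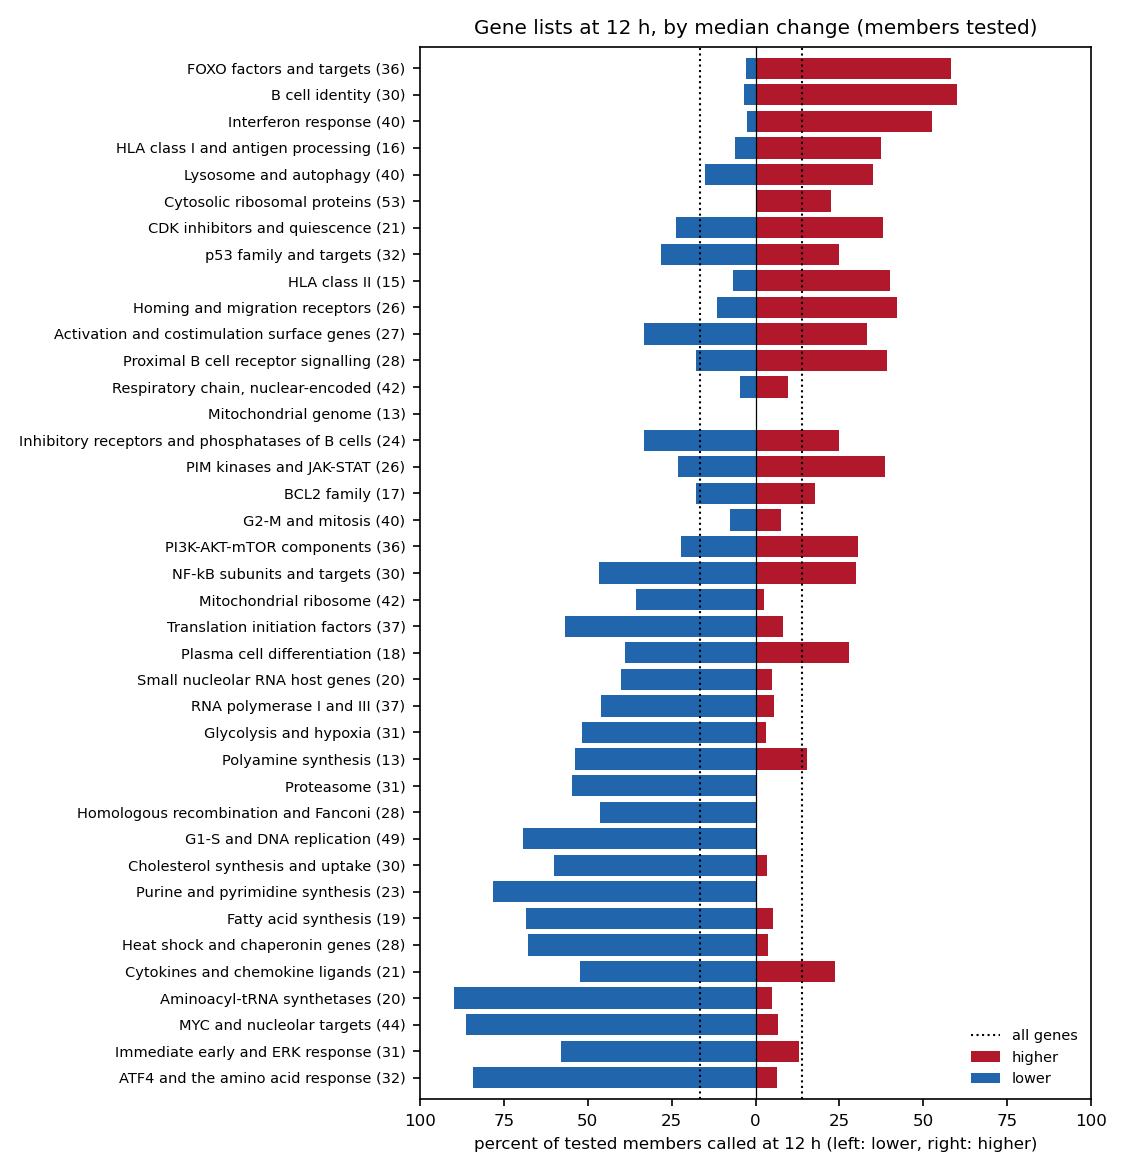
Percent of the tested members of 39 gene lists (rows, with the number tested) called higher (red, to the right) or lower (blue, to the left) at 12 h. Rows are ordered by median change, with dotted lines at the shares over all genes, 13.8% and 16.5%. These lines are not matched for level, and highly expressed genes were called more often. B cell identity, FOXO targets and interferon genes have the largest shares called higher, and the tRNA synthetase, MYC, ATF4 and purine and pyrimidine lists the largest shares called lower.

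Genes of DNA replication were lower while those of mitosis had few calls. Of 49 G1-S and replication genes, 34 were lower and 0 higher by edgeR, DESeq2, limma-voom and at an unadjusted p under 0.05, with a median of −0.25. Changes ran from −0.61 to −0.012. CDC25A, the phosphatase that activates CDK2, was at 27.8, 26.96 and 26.1 CPM with copanlisib and 40.1, 42.3 and 39.5 CPM with DMSO (−0.59 ± 0.066). CDC6, which loads the replicative helicase, was at 39.3, 34.7 and 32.5 CPM against 50.9, 47.97 and 48.5 CPM (−0.47 ± 0.062). MCM10, RFC3 and MCM4 changed by −0.54, −0.43 and −0.43, CDK4 and CDK6 by −0.38 and −0.42, and E2F1 by −0.33. Among D cyclins, CCND1 fell from 14.5 ± 0.933 to 9.49 ± 0.551 CPM, and the far more abundant CCND2 was at 444, 450.1 and 432 CPM against 494, 494 and 501 CPM (−0.17 ± 0.035). CCND3 changed by −0.17 ± 0.067 (adjusted p = 0.049), a call lost without any 1 of the 6 libraries of 12 h (adjusted p over the alternatives 0.0017 to 0.13). CCNE1, TK1 and LIG1 were not called (−0.012 ± 0.06, −0.033 ± 0.078 and −0.048 ± 0.057). Of 40 G2-M genes, 3 were higher and 3 lower (5 each without the 2 libraries of 4 h), with a median of −0.015: KIF20A, CCNF and CDC25B on one side (0.20, 0.16 and 0.16) and MAD2L1, AURKB and FOXM1 on the other (−0.18, −0.15 and −0.14). Of these, KIF20A, CCNF, CDC25B, MAD2L1 and AURKB lost their calls without 1 or more of the 12 h libraries, with adjusted p reaching 0.092, 0.13, 0.24, 0.059 and 0.21. The proliferation marker MKI67 was at 224, 213 and 229.8 CPM against 236, 235 and 231 CPM and was not called.

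Homologous recombination and Fanconi anaemia genes resembled the replication list, with 13 of 28 lower, 0 higher by edgeR, DESeq2, limma-voom and at an unadjusted p under 0.05, and a median of −0.21. BRCA2 was at 16.1, 14.1 and 13.7 CPM with copanlisib and 22.4, 25.1 and 21.4 CPM with DMSO (−0.65 ± 0.13, adjusted p = 0.000266). RBBP8 (CtIP), which starts end resection, XRCC2 and FANCM changed by −0.43 ± 0.069, −0.42 ± 0.13 and −0.40 ± 0.11, the last 2 with calls lost without copanlisib replicate 3 or DMSO replicate 1 and without copanlisib replicate 2 (adjusted p reaching 0.087 and 0.053). Among cell cycle inhibitors and quiescence genes, 8 of 21 were higher and 5 lower. CDKN2C (p18) rose from 1.58 ± 0.117 to 3.26 ± 0.727 CPM (1.05 ± 0.23) and CDKN2D (p19) by 0.48, and the retinoblastoma relative RBL2 (p130) by 0.23. CDKN1A (p21) and RBL1 (p107) were lower (−0.19 and −0.33). In the p53 list, 8 of 32 were higher and 9 lower (13 and 9 without the 2 libraries of 4 h). MDM2 was not called (0.031 ± 0.05), and the p53 relatives TP63 and TP73 rose (0.55 ± 0.06 and 0.31 ± 0.071).

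In the BCL2 family 3 of 17 were higher and 3 lower, shares near the 13.8% and 16.5% over all genes. BCL2 was at 207, 207 and 214 CPM with copanlisib and 203, 202 and 191 CPM with DMSO (0.075 ± 0.05) and was not called. MCL1, an antiapoptotic member, was at 335, 347 and 339 CPM against 235, 243 and 223 CPM (0.54 ± 0.047, adjusted p = 1.81e-09). The BH3-only genes BMF and BBC3 (PUMA) rose (0.83 ± 0.068 and 0.39 ± 0.13). The call of BBC3 was lost without DMSO replicates 2 or 3 or copanlisib replicate 1, with adjusted p reaching 0.12. The antiapoptotic BCL2A1 fell from 147 ± 13.5 to 96.3 ± 4.75 CPM, and BID and PMAIP1 (NOXA) were lower (−0.31 and −0.25). Of 26 PIM kinase and JAK-STAT genes, 10 were higher and 6 lower. PIM1 was at 39.5, 41.2 and 40.5 CPM against 24.7, 25.1 and 24.2 CPM (0.71 ± 0.068), like PIM2 on the higher side, and PIM3 at 93.4, 84.4 and 82.6 CPM against 113, 123 and 128 CPM (−0.48 ± 0.11), on the lower side. The interleukin 10 receptor gene IL10RA rose by 0.58 and STAT3 and STAT2 by 0.35 and 0.37. The feedback inhibitor SOCS3 fell at a low level (−0.84 ± 0.17).

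B cell identity genes were higher. Of 30 tested, 18 were higher and 1, IRF8 (−0.21), lower, with a median of 0.31. PAX5, the factor that maintains B cell identity, was at 473, 447 and 473 CPM with copanlisib and 333, 346 and 328 CPM with DMSO (0.47 ± 0.044, adjusted p = 5.5e-09). TCF3 (E2A) was at 400.3, 376 and 399 CPM against 271, 275 and 272 CPM (0.52 ± 0.057), and SPIB, ETS1, POU2AF1 and EBF1 changed by 0.51, 0.50, 0.44 and 0.27. All libraries of one group stood clear of the other for PAX5 and TCF3. The signal chains of the B cell receptor both rose: CD79B was at 74.6, 68.97 and 72.2 CPM against 39.3, 37.4 and 38.6 CPM (0.90 ± 0.08) and CD79A at 482, 465 and 481 CPM against 334, 326 and 346 CPM (0.51 ± 0.051). The receptor kinases BLK and SYK rose by 0.63 and 0.37, whereas BTK and LYN were not called (−0.10 ± 0.048 and 0.049 ± 0.047). Of 28 proximal receptor signalling genes, 11 were higher and 5 lower, the lower share being near the 16.5% over all genes. Lower ones were MALT1, which links the receptor to NF-kB, PRKCB, TEC and FYN (−0.21, −0.20, −0.24 and −0.12). BCL6, the germinal centre repressor, did not pass the filter on low counts.

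Inhibitory receptors and phosphatases had 6 of 24 higher and 8 lower. PTPN6 (SHP-1), the phosphatase that damps receptor signals, was at 419, 390.3 and 379 CPM with copanlisib and 617, 603 and 632 CPM with DMSO (−0.64 ± 0.044, adjusted p = 2.27e-11). FCRL5 and PDCD1 (PD-1) were lower at levels of 1 to 4 CPM (−1.38 ± 0.22 and −1.08 ± 0.21), and CD274 (PD-L1) fell by 0.42. Plasma cell genes split, 5 of 18 higher and 7 lower. JCHAIN, the joining chain of secreted IgM and IgA, was at 153, 165 and 169 CPM against 87.6, 84.8 and 79.7 CPM (0.95 ± 0.062), and IRF4 and PRDM1 (Blimp-1) rose by 0.37 and 0.46. XBP1, the factor of the secretory programme, and the secretory pathway genes PDIA4, FKBP11 and EDEM1 were lower (−0.37, −0.51, −0.49 and −0.48). Immunoglobulin genes, looked at after the values were seen, were higher in 13 of 17 tested and lower in 0 by edgeR, DESeq2, limma-voom and at an unadjusted p under 0.05. All 8 constant region genes tested rose, IGHG3 from 503 ± 5.74 to 878 ± 8.03 CPM (0.80 ± 0.045) and IGKC from 206 ± 7.72 to 314 ± 6.59 CPM (0.61 ± 0.04). The gamma constant genes are close copies of each other, so which of them the reads came from is uncertain.

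Surface receptors of homing were more often higher, 11 of 26 against 3 lower (12 against 5 without the 2 libraries of 4 h). CXCR4, the receptor that keeps B cells in bone marrow and lymphoid tissue, was at 149, 141 and 145 CPM with copanlisib and 94.8, 89.9 and 102 CPM with DMSO (0.60 ± 0.054, adjusted p = 2.88e-09). S1PR4 rose from 9.62 ± 0.642 to 17.6 ± 0.716 CPM. The lower share was under the 16.5% over all genes. The 3 lower genes were RGS1 and RGS16, which switch off chemokine receptor signals, and CXCR3 (−0.88 ± 0.088, −0.90 ± 0.062 and −0.49 ± 0.12). Activation and costimulation genes were higher in 9 of 27 and lower in 9. TNFRSF4 (OX40), IL2RA (CD25) and TNFRSF18 (GITR) were lower (−0.81 ± 0.11, −0.67 ± 0.08 and −0.58 ± 0.12), and CD80 and CD69 higher (0.38 and 0.37).

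Interferon response genes were higher in 21 of 40 and lower in 1, GBP1 (−0.33), with a median of 0.23. MX1, an antiviral GTPase, was at 639, 621 and 624 CPM with copanlisib and 465, 455 and 457 CPM with DMSO (0.45 ± 0.038, adjusted p = 9.53e-10). IFIT3 was at 322, 317 and 303 CPM against 241, 226 and 236 CPM (0.42 ± 0.058), and IFIT2, IRF7 and ISG20 changed by 0.57, 0.45 and 0.41. ISG15 and IFI6, often among the strongest interferon targets, were not called (0.17 ± 0.13 and 0.18 ± 0.089). HLA class I and antigen processing had 6 of 16 higher and 1 lower, TAP2 (−0.38 ± 0.058). HLA-E and PSMB9 rose (0.29 ± 0.042 and 0.28 ± 0.079). HLA class II had 6 of 15 higher and 1 lower: HLA-DMB, which helps load peptides, rose by 0.45 and its regulator CIITA by 0.25, while HLA-DRA changed by −0.002 ± 0.04 without a call. HLA-DQA2, called lower at −0.22, lost its call with DESeq2 and limma-voom (adjusted p over the alternatives 0.025 to 0.24). HLA genes vary between people and resemble each other, so counts against 1 reference are uncertain. Among lysosome and autophagy genes 14 of 40 were higher and 6 lower, the lower share being near the 16.5% over all genes. ULK1, the kinase that starts autophagy, and MAP1LC3B rose (0.43 ± 0.088 and 0.34 ± 0.079). FNIP2 and FLCN, which act in nutrient signalling to mTORC1, fell (−0.73 ± 0.098 and −0.31 ± 0.089).

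Among long noncoding RNAs within the limits of level and separation used above for protein-coding genes, AC037441.1, LINC02362 and LINC01749 rose most, by 1.24 ± 0.11, 1.09 ± 0.093 and 0.81 ± 0.098 on the log2 scale. AC037441.1 was at 14.5, 15.1 and 15.8 CPM with copanlisib and 6.63, 6.25 and 6.24 CPM with DMSO. AL160408.3, VPS9D1-AS1, which is antisense to VPS9D1, and SNHG15 were lowest within the same limits, and VPS9D1-AS1 was at 6.85, 6.46 and 7.31 CPM against 12.99, 13.4 and 14.1 CPM (−0.97 ± 0.11). The kit named in the labels does not mark strand, but 1 strand column held 95.3% of stranded reads in each 12 h library, and that column was counted.

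Marker lists of cells other than B cells summed to far less than the B cell markers, with the stromal and epithelial list the highest of them. The 6 B cell markers summed to 1976 to 2025 CPM per copanlisib library and 1625 to 1648 per DMSO library, with 5 of 6 called higher. That of MS4A1 was lost without any 1 of the 12 h libraries, with adjusted p reaching 0.18. T and NK cell markers summed to 12.51 to 14.04 and 15.6 to 16.4 CPM, with 6 of 14 at 0 in every 12 h library, 3 tested and 1, NKG7 (−0.44 ± 0.12), called lower. Myeloid markers summed to 17.9 to 21.5 and 16.7 to 19.4 CPM, with 3 of 12 at 0, and 1 of 4 tested was called: S100A9, at 1.43, 1.44 and 1.50 CPM with copanlisib and 0.334, 0.486 and 0.156 CPM with DMSO. Stromal and epithelial markers summed to 96.3 to 98.0 and 63.3 to 69.3 CPM, with 5 of 15 at 0 and 6 of 7 tested called higher. COL1A1 was at 24.5, 27.5 and 26.4 CPM against 12.7, 16.3 and 15.1 CPM (0.83 ± 0.1), and KRT8, CDH1 and PDGFRB rose by 0.54, 0.49 and 0.50, the last a call lost with DESeq2 (adjusted p over the alternatives 0.009 to 0.15). These stromal and epithelial genes moved with the higher genes above, and their part in the results was not tested. Retina markers summed to 11.8 to 14.4 and 10.4 to 10.9 CPM with 7 of 16 at 0, and 1 of 2 tested, PDE6B, was called higher (0.33 ± 0.12), a call lost with DESeq2 (adjusted p over the alternatives 0.011 to 0.17).

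Most of the 12 h effect was already present at 8 h, which has its own DMSO controls. Of the 2218 genes higher at 12 h, 1473 were also called higher at 8 h and 0 lower, and of the 2664 lower at 12 h, 2080 were also lower and 2 higher. A test of the difference between the 12 h and the 8 h effect called 9 genes (0.0558%), 6 with a higher and 3 with a lower effect at 12 h. With any 1 of the 6 libraries of 12 h left out it called 0 to 2. Without the 2 libraries of 4 h that stood apart, which narrows the shared spread, the same test called 176 of 17007 genes (1.03%), 94 with a higher and 82 with a lower effect at 12 h. CHAC1 had the largest gap, with effects of −0.49 at 8 h and −1.48 at 12 h (difference −0.99, adjusted p = 0.0252). ATF4 and the uridine phosphorylase UPP1 went the same way, with effects of −0.022 and −0.26 at 8 h and −0.38 and −0.83 at 12 h. At 4 h, over all 18 libraries, the effects of CHAC1, ATF4 and UPP1 were −1.83, −0.38 and −0.55, so each was weakest at 8 h. TXNIP and PIM2 rose further, from 0.93 and 1.16 at 8 h to 1.41 and 1.50. The lipid droplet protein PLIN2 went from 0.15 to 0.47, IGHG3 from 0.46 to 0.80, and PEA15, an adaptor that binds ERK, from −0.52 back towards 0 at −0.17.

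The effect at 12 h differed from that at 4 h in 2688 genes (16.7%), and in 900 of 17007 (5.29%) without the 2 libraries that stood apart, 447 with a higher and 453 with a lower effect at 12 h. Without DMSO replicate 1 of 12 h it was 1742 genes. As given above, the 4 h effect ran with GC content in the opposite direction to that at 12 h. LTB grew from 0.29 at 4 h through 1.36 at 8 h to 2.000 at 12 h (difference between 12 and 4 h 1.71, and 1.45 without those libraries). XCL1 was steady, at −2.11, −2.23 and −2.37. The median of the cytokine and chemokine list was −0.43 at 4 h, −0.058 at 8 h and −0.37 at 12 h (−0.30 at 4 h without those libraries). The median over its members of the difference between 12 and 8 h was only −0.037. For the G1-S and replication list, the median was 0.035 at 4 h without the 2 libraries, −0.044 at 8 h and −0.25 at 12 h. Medians at 4 h without the 2 libraries rest on 1 copanlisib library. At 8 h, 7 of its 49 members were higher and 18 lower. In the test of 12 against 4 h, 28 members had a lower effect at 12 h, 22 without those libraries, and in that of 12 against 8 h 0 had one by edgeR, 8 without them. Homologous recombination genes had medians of 0.030, −0.081 and −0.21 on the same basis. The B cell identity list had medians of 0.20, 0.25 and 0.31, and the MYC list −0.52, −0.56 and −0.45.

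**Figure D5:**
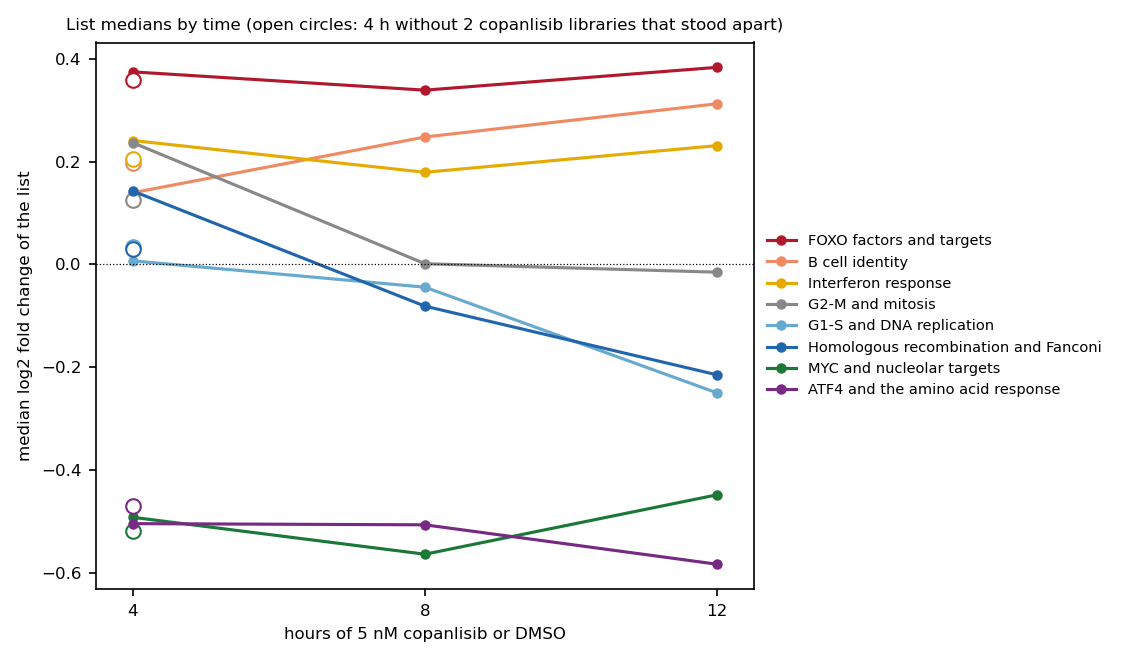
Median log2 fold change (vertical axis) of 8 gene lists at 4, 8 and 12 h of treatment (horizontal axis), filled points from all 18 libraries and open circles at 4 h without the 2 copanlisib libraries that stood apart. At 4 h, the open circles of the G1-S and homologous recombination lists are at 0.035 and 0.030, and their filled points are at 0.0068 and 0.14. At 12 h these lists are near −0.25 and −0.21, while FOXO, MYC and ATF4 lists hold their level.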

How the data were processed

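RNA sequencing of HAIR-M gave 18 libraries, of which the 6 of 12 h are compared (group, time and replicate from the labels). The authors deposited raw counts per gene and library, with CASAVA 1.7, STAR 2.5.2b and the genome hg38 given in the submitters' processing notes. Which annotation was used is not given in the sources here. Of 3 count columns, the one with 95.3% of stranded reads at 12 h was used. Reads at several places (9.28% to 10.1%) were not counted, so near-identical genes are undercounted, and the 4 summary lines were left out. Gene symbols were matched for 41124 identifiers in a supplied name table and for 15629 in GENCODE 29.

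R 4.3.3 and edgeR 4.0.16 were used: filterByExpr, TMM, 1 model of 6 group means over all 18 libraries (glmQLFit, glmQLFTest, two-sided, Benjamini-Hochberg over 16122 genes, threshold 0.05, common coefficient of variation 0.0500). SE is the change divided by the root of F. The steps were checked on simulated data. Replicate pairs of 12 h differed by a chi-square of 1.69 to 2.87 per gene, where 1 is sampling noise, so all were kept. CPM of low genes carry more counting error.

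The 44 gene lists, 228 named genes and rules were chosen with earlier results of these data known. The naming rule takes the 12 highest and 12 lowest protein-coding genes (average log2 CPM of at least 3, groups apart), 3 and 3 noncoding, up to 5 per list, 4 and 4 per difference between times, and 30 fixed genes. Other list members named in the text were picked after their values were seen. Alternatives were DESeq2 1.42.0, limma-voom (limma 3.58.1), DESeq2 size factors, no filter, counts without strand, a replicate block, 16 or 6 libraries, stricter thresholds, each 12 h library left out and, chosen after seeing the data, 6 libraries with the block. Results for some genes are not reported here.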

Additional observations from a re-analysis of the deposited data

Results flagged for a closer look

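The effect of copanlisib at 12 h differed from that at 8 h, by a test of the difference itself, in 9 genes, of which 7 are listed here, with adjusted p from edgeR between 0.0152 and 0.0424. The effect was more positive at 12 h for 4 of them: TXNIP by 0.474 on the log2 scale, PEA15 by 0.351, PIM2 by 0.335 and PLIN2 by 0.319. It was lower for 3 at 12 h: CHAC1 by a difference of −0.986, UPP1 by −0.568 and ATF4 by −0.36. Each group has its own DMSO libraries, so no controls are shared. Without the 2 libraries of copanlisib at 4 h that stood apart, the same differences were 0.48 for TXNIP, 0.36 for PEA15, 0.34 for PIM2, 0.32 for PLIN2, −0.98 for CHAC1, −0.57 for UPP1 and −0.36 for ATF4.

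Between 12 and 4 h, the largest gains of the effect were those of LTB (1.71), SPIB (1.14), KREMEN2 (1.1) and METRN (0.951), and the largest losses those of ANK2 (−1.06), FAM111B (−0.995), TENM1 (−0.971) and BRCA2 (−0.969). Over all 18 libraries, the median 4 h effect was 0.12 where GC content was lowest and −0.21 where it was highest, opposite in direction to 12 h. The part of GC content in these gains and losses was not tested. The 4 h group holds the 2 libraries that stood apart. Without them the differences were 1.45 for LTB, 0.98 for SPIB, 0.60 for KREMEN2, 0.49 for METRN, −0.98 for ANK2, −0.68 for FAM111B, −0.80 for TENM1 and −0.94 for BRCA2. Their adjusted p from edgeR were 6.77e-09, 5.5e-11, 9.68e-05, 0.102, 1.89e-05, 0.00186, 0.0114 and 0.000144 in that order. Then 1 copanlisib library is left at 4 h, which is assumed to vary like the other groups.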

How the results depend on the processing

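No called change of a named gene turned its sign, but the balance of calls did turn: more genes were called lower than higher at 12 h, yet more higher than lower at 2-fold, and the surplus of higher calls between 12 and 8 h turned without the filter and without copanlisib replicate 1. At 12 h, 4487 genes were called with DESeq2, 4856 with limma-voom, 6221 in 16 libraries, 6262 in the 6 of 12 h and 3909 to 4135 with each 12 h library left out. An adjusted p under 0.01 left 1383 higher calls, and a change of at least 2-fold 277 calls, 173 higher and 104 lower. The difference between 12 and 8 h depended most on the processing: 9 genes became 26 with DESeq2 (18 higher, 8 lower), 35 without the filter (12 higher, 23 lower), 12 with limma-voom (7 higher, 5 lower), 5 in counts without strand (3 higher), 176 in 16 libraries (94 higher, 82 lower) and 0 at an adjusted p under 0.01 by edgeR (0 higher, 0 lower), where 1196 had an unadjusted p under 0.05. With each 12 h library left out it gave 0 to 2, with 0 higher and 0 to 2 lower. The difference between 12 and 4 h gave 900 in 16 libraries (447 higher, 453 lower), 1134 at an adjusted p under 0.01 (623 higher, 511 lower) and 1742 to 2434 with each 12 h library left out (946 to 1305 higher, 796 to 1129 lower). The cause was not tested.

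The replicate block called 4887 genes and changed no call among the 228 named genes. Same-numbered libraries of 12 h did not deviate together (correlations −0.022, −0.0083 and −0.034), and no library correlated best with its own number. Correlations near 0 among so few libraries cannot tell whether same-numbered libraries share a culture or a batch. In the 6 libraries alone with the block, an alternative chosen after seeing the data, 5997 genes were called. The median of the B cell identity list was 0.352 in counts without strand, 0.353 in the 6 libraries and 0.353 there with the block, and that of the T and NK markers −0.170 in both. With each library left out, medians ranged from −0.526 to −0.44 for immediate early genes, 0.308 to 0.372 for B cell identity, 0.110 to 0.159 for HLA class I, −0.160 to −0.0963 for small nucleolar RNA host genes, 0.0279 to 0.0956 for the respiratory chain and 0.0372 to 0.0926 for p53 targets. Of 228 named genes, 30 lost and 2 gained a call in some alternative. Depth limits genes near 1 CPM most, since few reads stand behind them.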
